A study of Mus musculus with 19 samples.

Results

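The genes described here are the 3 TAM receptor tyrosine kinases, Tyro3, Axl and Mertk, and their 2 vitamin K-dependent ligands, Gas6 and Pros1. These 5 genes were taken by symbol from the 55487 genes listed in every library. They were picked with the values of the spinal cords in view, since Tyro3 was lower in all knockout cords, so the comparison of knockout with wild-type cords is given for them as a description and without a test. The rule that picked them names no value of the cultures, and there the comparison was tested, although earlier results of these data were known.

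The study sequenced RNA from 9 spinal cords of mice labelled as miR-146a knockouts, 4 spinal cords of wild-type mice, 3 motor neuron cultures given a locked nucleic acid (LNA) named for miR-146a, and 3 motor neuron cultures given a control LNA. The labels give neither age, sex, strain nor batch of the mice, nor how the knockout allele was made. All 6 cultures were wild type in genotype and came from 1 mouse embryonic stem cell line, RW.4, directed towards motor neurons with retinoic acid and SAG (an agonist of the hedgehog pathway). They were transfected for 72 h with 10 nM of an LNA in Lipofectamine 2000. The labels do not say whether the cultures were separate differentiations, so p-values for the cultures refer to the variation among these samples, which may be technical.

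TAM receptors recognise phosphatidylserine, a lipid that dying cells expose on their surface, through Gas6 and Pros1, which hold the lipid at one end and the receptor at the other. Gas6 can bind all members of the receptor family, and Pros1, known as protein S in blood clotting, binds Tyro3 and Mertk. In the central nervous system Mertk and Axl are best known from phagocytes, where they drive engulfment of dying cells and restrain innate immune signalling, while Tyro3 is found mainly in neurons and oligodendrocytes. The microRNA miR-146a is an NF-kB-induced repressor of the adaptors Traf6 and Irak1.

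The sequences that the labels' miR-146a points to come first, since a microRNA finds its targets through its seed, bases 2 to 8. The mature sequence and that of its close relative miR-146b, both from RefSeq on GRCm38.p6, are given with the seed in capitals.
mmu-miR-146a-5p (chr11:43374435-43374456, minus strand): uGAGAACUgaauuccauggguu
mmu-miR-146b-5p (chr19:46342790-46342811, plus strand): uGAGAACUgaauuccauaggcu
Both microRNAs share the same seed. Its complement, AGTTCTC, was searched in the annotated 3′ untranslated region of 1 transcript of each of the 5 genes, that with the longest coding sequence. The 3′ untranslated regions of other transcripts were not searched. Axl held 1 match, at position 235 of the 1389 bases of its transcript Axl-201, and the match was followed by an A, which makes it a match of 8 bases (AGTTCTCA). It is shown with its flanks and with the match in capitals.
Axl 3′ untranslated region (chr7:25758410-25758437, GRCm38, minus strand): tagagttcaaAGTTCTCAaagatgatga
No 7-base match was found in Tyro3 (1070 bases), Mertk (1227 bases), Gas6 (372 bases) or Pros1 (1153 bases). The 7-base match occurs in 9.56% of the 21674 genes with a protein-coding transcript and the 8-base match in 3.50% of them. A match is a description of the sequence and not a measured site.

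On GRCm38, Tyro3 (ENSMUSG00000027298) lies on chromosome 2 at 119797733 to 119818104 on the plus strand, and Mertk (ENSMUSG00000014361) on the same chromosome and strand at 128698956 to 128802894. Axl (ENSMUSG00000002602) lies on chromosome 7 at 25757273 to 25788705 on the minus strand. Gas6 (ENSMUSG00000031451) lies on chromosome 8 at 13465374 to 13494490 on the minus strand, and Pros1 (ENSMUSG00000022912) on chromosome 16 at 62854307 to 62929346 on the plus strand. No other listed gene overlaps Tyro3, Axl or Pros1. Gas6 overlaps Tmem255b on the opposite strand, and whether counting used the strand is not given in the sources used here, but Tmem255b had at most 146 counts, or 1.81% of those of Gas6 in the same library. Within Mertk lie the antisense gene Gm14011, with at most 7 counts, and the small nucleolar RNA gene Gm23172, with at most 2.

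Total counts were 28163289 to 39577247 in knockout cords, 31671608 to 36946892 in wild-type cords, 40647549 to 65471742 in miR-146a LNA cultures and 53082991 to 60516445 in control LNA cultures. The targeted locus could not be checked, because Mir146 had 1 count over the 9 knockout cords and 0 over the 4 wild-type cords, a sum that allows up to 0.0221 CPM. A pair of knockout libraries stood apart. The library labelled knockout replicate 9 had 13.04 CPM of Pttg1 (securin), against 1.06 to 1.81 in the other 8 knockout cords and 14.9 to 17.4 in wild-type cords, and 1947 CPM of Sod1, against 191 to 263 in the other 8 knockout cords and 261 to 275 in wild-type cords. Knockout cord 7 had 2564 CPM of Acta1, a skeletal muscle actin, against at most 6.03 in any wild-type cord. Correlations whose call by Pearson r is lost without this pair are given with and without it. Calls by Spearman's rho were not tested again without it. The cultures carried the markers of their label, 6 motor neuron markers (including Chat, Isl1 and Prph). Their TPM summed to 4450 to 4867 in miR-146a LNA cultures and 4516 to 4629 in control LNA cultures. In knockout cords the sum was 226 to 572, and in wild-type cords 284 to 359. Prph alone had 2943 to 3218 TPM in miR-146a LNA cultures and 2918 to 3017 in control LNA cultures.

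Levels are given below as normalised CPM (counts scaled to library size by the TMM factors of edgeR) when 1 gene is followed across libraries, and as the authors' TPM (which is corrected for gene length) when genes are set beside each other. All 5 genes passed the filter on low counts in cords and in cultures.

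By normalised CPM, Tyro3 was the only gene of the family whose knockout cords all lay below the wild-type cords. Its normalised CPM in the 9 knockout cords was 90.9 at the lowest, 100.1 at the median and 108.3 at the highest, against 119.8, 132.5, 118.3 and 123.7 in the 4 wild-type cords. On this scale the groups did not overlap, and the highest knockout cord lay below the lowest wild-type cord. On the TPM scale they did overlap. There the library labelled knockout replicate 9 had 61.5 TPM, within the 58.3 to 64.5 TPM of the wild-type cords. The next highest knockout cord, cord 2, had 55.1 TPM. The mean was 101 ± 6.37 in knockout cords and 124 ± 6.38 in wild-type cords (SD, n = 9 and n = 4), a log2 fold change of −0.29 (SE 0.06), or 18.5% lower. Every knockout cord lay below every wild-type cord for 0.798% of the 22174 genes tested in cords, and nothing is read from this here because the genes were picked on that contrast. The fold change was −0.29 (SE 0.06) also without the library labelled knockout replicate 9 and knockout cord 7. In a tissue, fewer cells of a type and less RNA per cell cannot be told apart.

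Mertk, the receptor of phagocytes that engulf dying cells, was higher in 8 of the 9 knockout cords than in any wild-type cord. Its normalised CPM in knockout cords was 22.9 at the lowest, 38.4 at the median and 60.7 at the highest, against 20.9, 21.2, 24.2 and 22.8 in wild-type cords. Knockout cord 2 alone lay among the wild-type cords, and knockout cord 4 was the highest. The means were 39.1 ± 10.5 in knockout cords and 22.3 ± 1.53 in wild-type cords (SD, n = 9 and n = 4), a log2 fold change of 0.81 (SE 0.19).

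Axl, which is induced on inflamed phagocytes, varied more between knockout cords than any other receptor here. Its normalised CPM in knockout cords was 84.7 at the lowest, 112 at the median and 284 at the highest, against 86.6, 98.6, 86.2 and 85.9 in wild-type cords. Of the 9 knockout cords, 5 lay above all wild-type cords, 1 below all of them and the rest between. The means were 138 ± 63.6 and 89.3 ± 6.19 (SD, n = 9 knockout and n = 4 wild-type cords), a log2 fold change of 0.63 (SE 0.30), which was 0.43 (SE 0.20) without knockout cord 7, the highest of them.

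Gas6, the ligand that binds all TAM receptors, was close to equal in the groups. Its normalised CPM in knockout cords was 182 at the lowest, 235 at the median and 265 at the highest, against 235, 249.7, 236 and 232 in wild-type cords. The lowest value was in the library labelled knockout replicate 9, and the groups overlapped. The log2 fold change was −0.04 (SE 0.08), with means of 231 ± 24.4 in knockout cords and 238 ± 7.98 in wild-type cords (SD, n = 9 and n = 4).

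Pros1, the anticoagulant ligand, was higher in all 9 knockout cords than in any wild-type cord. Its normalised CPM in knockout cords was 21.3 at the lowest, 32.0 at the median and 79.9 at the highest, against 19.1, 21.1, 19.3 and 19.1 in wild-type cords. The margin between the lowest knockout cord, cord 2, and the highest wild-type cord was small, at 21.3 against 21.1 normalised CPM, while knockout cords 1, 4 and 7 lay above 50 normalised CPM. The means were 39.1 ± 18.8 in knockout cords and 19.7 ± 0.992 in wild-type cords (SD, n = 9 and n = 4), a log2 fold change of 0.99 (SE 0.33), which was 0.80 (SE 0.24) without knockout cord 7. Every knockout cord lay above every wild-type cord for 0.505% of the genes tested.

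**Figure D1:**
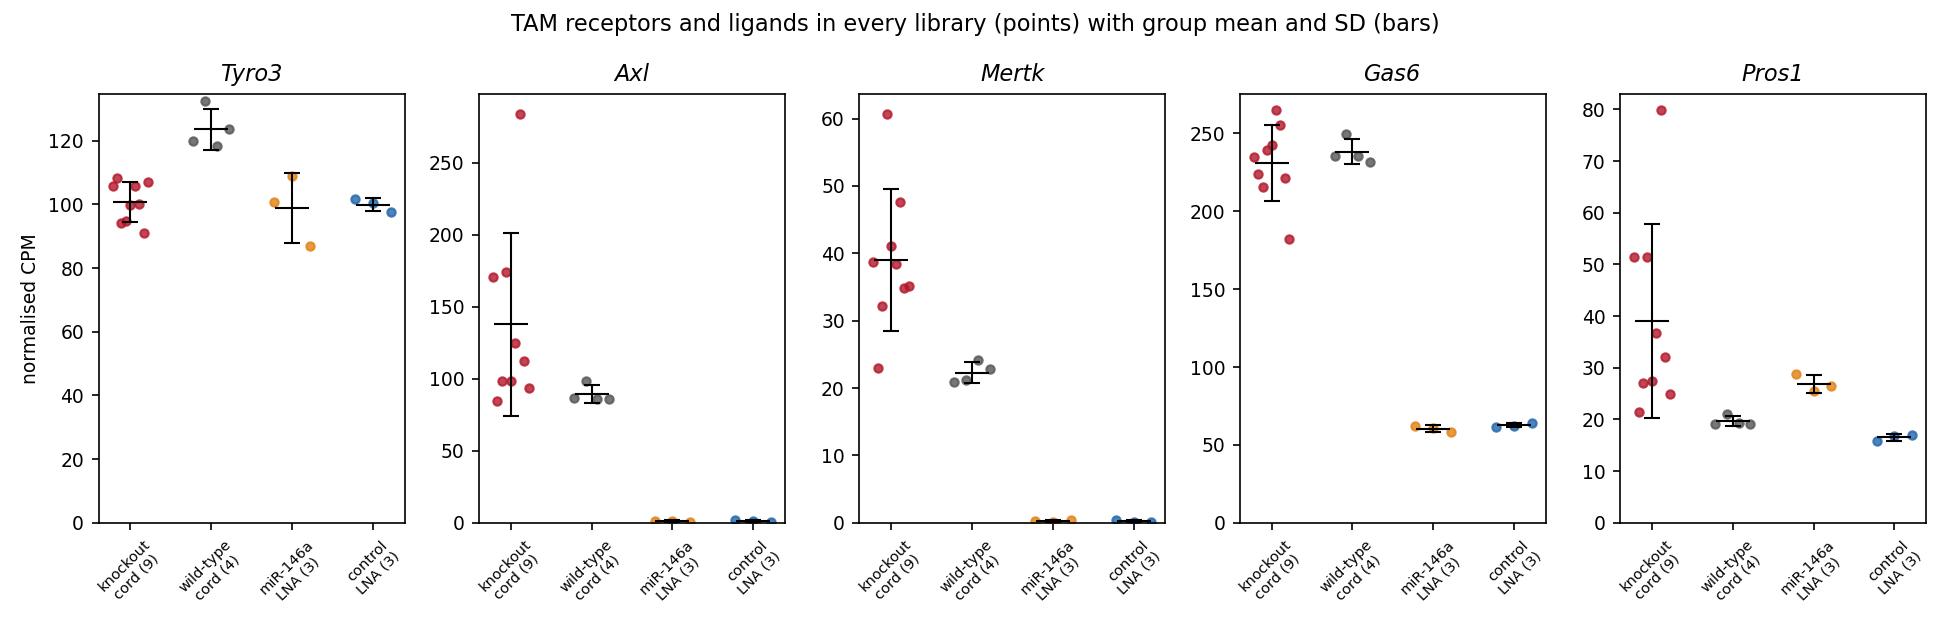
Normalised CPM of the 5 genes in every library, with knockout cords (n = 9) left of wild-type cords (n = 4) and miR-146a LNA cultures (n = 3) left of control LNA cultures (n = 3); points are libraries, and bars show the group mean and SD. Tyro3 lies lower in all knockout cords, at 90.9 to 108.3 against 118.3 to 132.5 normalised CPM in wild-type cords, Pros1 lies higher in all of them, and Axl and Mertk are low in all cultures.

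The spread between knockout cords was not alike for the 5 genes. The coefficient of variation was 48.0% in knockout cords and 5.04% in wild-type cords for Pros1, 46.2% and 6.93% for Axl, and 27.0% and 6.88% for Mertk. For Tyro3 it was 6.32% in knockout cords and 5.16% in wild-type cords, and for Gas6 10.6% and 3.35%. The Axl, Mertk and Pros1 values of the knockout group ran upwards from near the wild-type levels, while its Tyro3 values lay close together.

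Set beside each other on the TPM scale, Gas6 stood above all receptors in every cord, at 290 ± 22.3 TPM in knockout cords and 287 ± 14.8 TPM in wild-type cords (SD, n = 9 and n = 4). In all 4 wild-type cords Tyro3 came second, ahead of Axl. In 8 of the 9 knockout cords Axl came second, ahead of Tyro3, with the order Gas6, Axl, Tyro3, Mertk, Pros1 in 5 of them. Tyro3 supplied 32.6% of the summed TPM of the 3 receptors in knockout cords (19.3% to 44.1%), against 46.6% in wild-type cords (45.7% to 47.2%), and Mertk supplied 17.3% (13.1% to 21.9%) against 12.0% (10.7% to 13.4%). Axl supplied 50.1% (42.2% to 67.5%) in knockout cords and 41.4% (40.4% to 42.7%) in wild-type cords. The knockout and wild-type ranges of the Tyro3 share did not overlap, and neither did those of the ligand share of Pros1, given below. Nothing is read from this, because the genes were picked with the cord values in view. The TPM of Tyro3 itself overlapped, at 47.9 to 61.5 in knockout cords and 58.3 to 64.5 in wild-type cords. Pros1 was the minor ligand in both groups, at 9.30% of the summed ligand TPM in knockout cords (5.60% to 16.3%) and 4.89% in wild-type cords (4.80% to 5.01%).

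**Figure D2:**
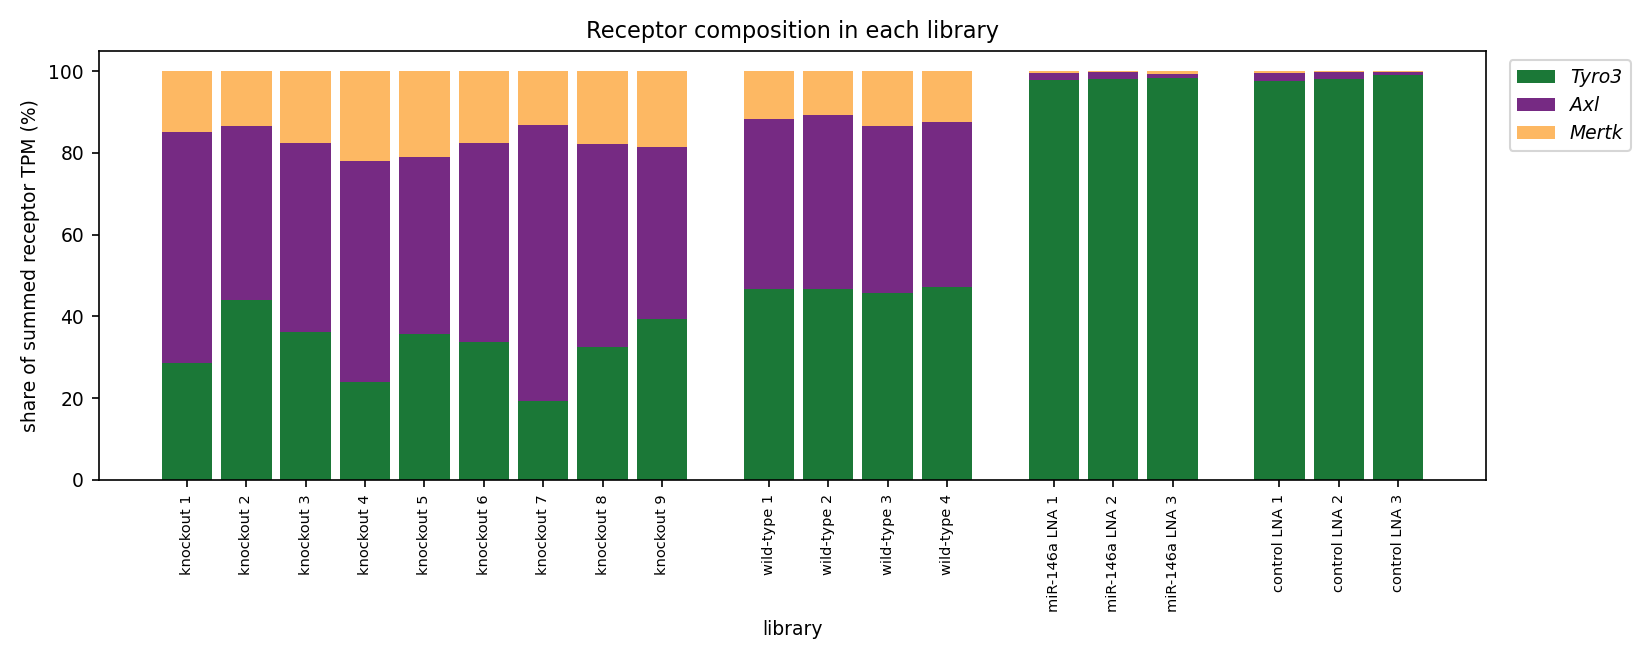
Share of each receptor in the summed TPM of Tyro3, Axl and Mertk (percent, stacked to 100) in every library, with knockout cords before wild-type cords and miR-146a LNA cultures before control LNA cultures. Tyro3 makes up 19.3% to 44.1% in knockout cords, 45.7% to 47.2% in wild-type cords and above 97% in all 6 cultures.

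Markers of other cells varied among the cords, and the summed levels of knockout and wild-type cords overlapped for the lists given here, apart from pericyte and fibroblast markers. All 7 microglia markers had a positive log2 fold change, with summed TPM of 216 to 803 in knockout cords and 220 to 283 in wild-type cords. So had all 8 activated microglia markers (160 to 1017 TPM in knockout cords, 174 to 220 in wild-type cords) and all 4 perivascular macrophage markers (3.55 to 19.6 and 2.71 to 3.82). Astrocyte markers were positive for 4 of 6 genes (1948 to 6038 TPM in knockout cords, 1893 to 2865 in wild-type cords), and pericyte and fibroblast markers for all 6 (113 to 1001 and 104 to 109). Red blood cell markers summed to 140 to 2922 TPM in knockout cords and 93.6 to 169.8 in wild-type cords, and neutrophil markers to 1.24 to 226 and 0.328 to 9.04. Endothelial markers summed to 163 to 374 TPM in knockout cords and 183 to 227 in wild-type cords, positive for 5 of 6 genes. Neuron markers were positive for 1 of 6 genes (2420 to 2899 TPM in knockout cords, 2517 to 2961 in wild-type cords) and oligodendrocyte markers for 1 of 6 (5412 to 8086 and 5529 to 7890). The part of these cells in the levels of the 5 genes was not tested.

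Axl and Pros1 moved together across the knockout cords. Over the 9 cords their log2 levels had a Pearson r of 0.994 (exact permutation p = 5.51e-06, and 5.51e-05 after Benjamini-Hochberg adjustment over 10 pairs of genes). Spearman's rho was 0.983 (exact permutation p = 4.96e-05, adjusted 0.000496), and r was 0.996 without cords 4 and 7, the 2 farthest from the median of Axl, and 0.996 without cords 7 and 9. This was the only one of the 10 pairs to pass at an adjusted p of 0.05. Mertk reached an r of 0.744 with Pros1 (rho 0.817) and 0.707 with Axl (rho 0.733), with adjusted exact permutation p of 0.0993 and 0.121 for r and of 0.0538 and 0.104 for rho. Without the 2 cords farthest in Mertk (2 and 4) its r with Pros1 was 0.774, and without those farthest in Axl (4 and 7) its r with Axl was 0.568. Tyro3 had r of −0.13 with Axl, −0.37 with Mertk, −0.06 with Gas6 and −0.15 with Pros1, none past the threshold. The libraries share their depth and scaling, and no batch is labelled within which to repeat these correlations.

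**Figure D3:**
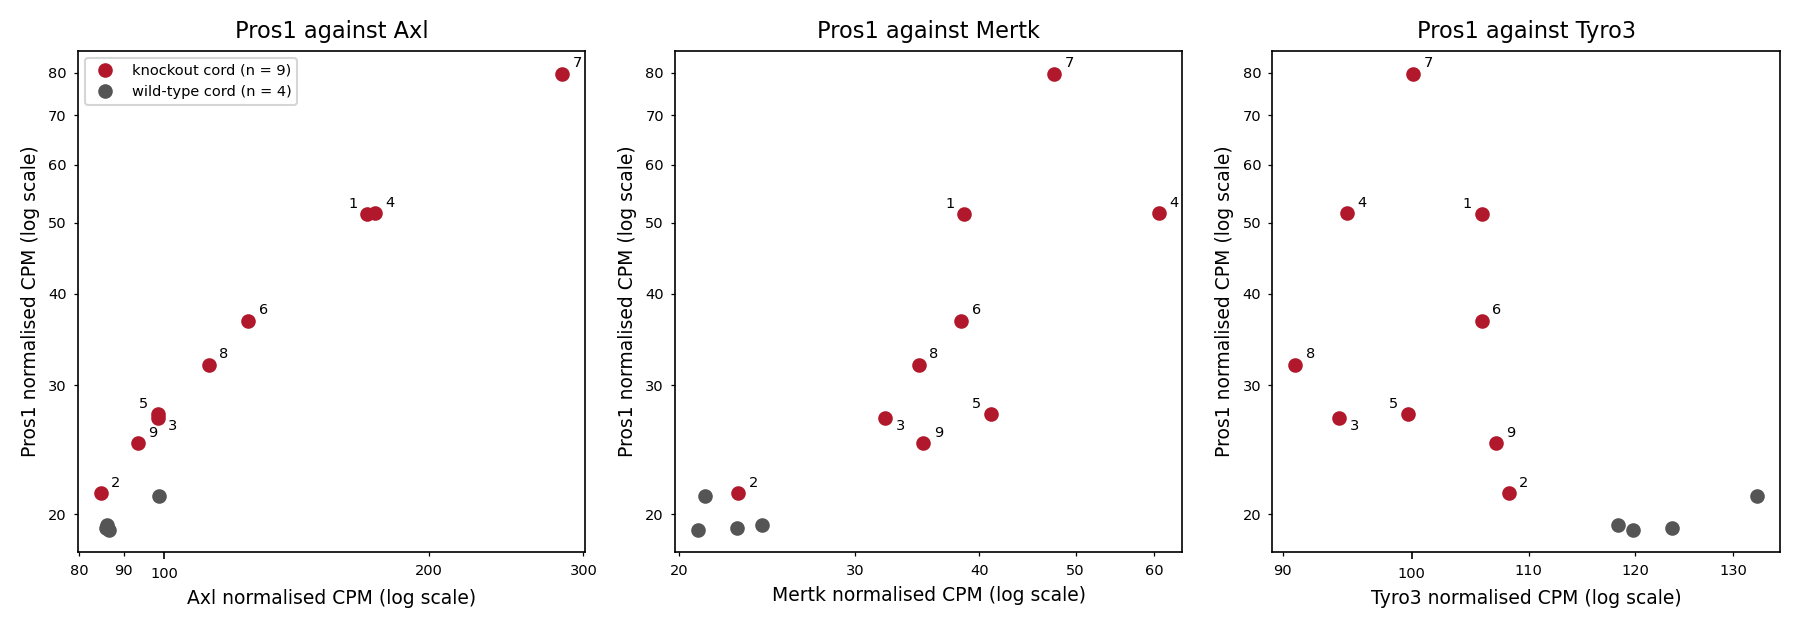
Pros1 normalised CPM (y axis, log scale) against Axl, Mertk and Tyro3 normalised CPM (x axes, log scale) in 9 knockout cords, numbered, and 4 wild-type cords. Knockout cords run along 1 line with Axl (r 0.994), more loosely with Mertk (r 0.744), and show no line with Tyro3 (r −0.15).

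The same 9 cords were compared for markers of 5 cell classes, each scored as the mean of its markers' deviations in log2 level. The share of all genes with such relations is not given here, so they are not read as particular to these genes. Pros1 followed the microglia score (r 0.977, rho 0.933, adjusted exact permutation p = 0.000276 and 0.00468 over 25 relations), the activated microglia score (r 0.924, rho 0.983, adjusted p = 0.00120 and 0.00124) and the astrocyte score (r 0.948, rho 0.833, adjusted p = 0.000861 and 0.0295). Without the 2 cords farthest in each score its r was 0.979, 0.985 and 0.936. Axl followed the same scores, with r of 0.954, 0.891 and 0.935 (rho 0.967, 0.967 and 0.817), and adjusted exact permutation p of 0.000276, 0.00299 and 0.000861 for r and of 0.00138, 0.00138 and 0.0299 for rho. Without the 2 farthest cords its r was 0.964, 0.975 and 0.928. Mertk followed the activated microglia score (r 0.908, rho 0.833, adjusted exact permutation p = 0.00352 and 0.0295), but its r without cords 2 and 4 was 0.746 and no longer passed (adjusted exact permutation p = 0.117). Without cords 7 and 9 its r was 0.913 and did not pass (adjusted exact permutation p = 0.0553). Its r of 0.783 with the microglia score passed (adjusted exact permutation p = 0.0214) and its rho of 0.667 did not (adjusted 0.113), with r of 0.898 without cords 1 and 7 (adjusted exact permutation p = 0.0471) and of 0.797 without cords 7 and 9, which did not pass (adjusted exact permutation p = 0.0970). With the astrocyte score its r of 0.667 did not pass (adjusted exact permutation p = 0.0947) and its rho of 0.817 did (adjusted 0.0299). Without cords 7 and 9 these were 0.624 for r and 0.786 for rho.

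The endothelial score gave r of 0.851 with Axl (rho 0.767) and 0.825 with Pros1 (rho 0.800), each with an adjusted exact permutation p of 0.0155 for r. Without cords 7 and 9, which are the 2 farthest in that score, r was 0.574 and 0.567 and neither passed (adjusted exact permutation p = 0.238 and 0.255), so both relations rest on those libraries. Tyro3 followed none of the 5 scores, with r between −0.36 and 0.06, and neither did Gas6 by r (0.47 to 0.78). The rho of Gas6 with the endothelial score was 0.833, with an adjusted exact permutation p of 0.0295. Without cords 7 and 9 that rho was 0.714. The neuron score gave r between −0.32 and 0.51 with the 5 genes, none past the threshold.

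**Figure D4:**
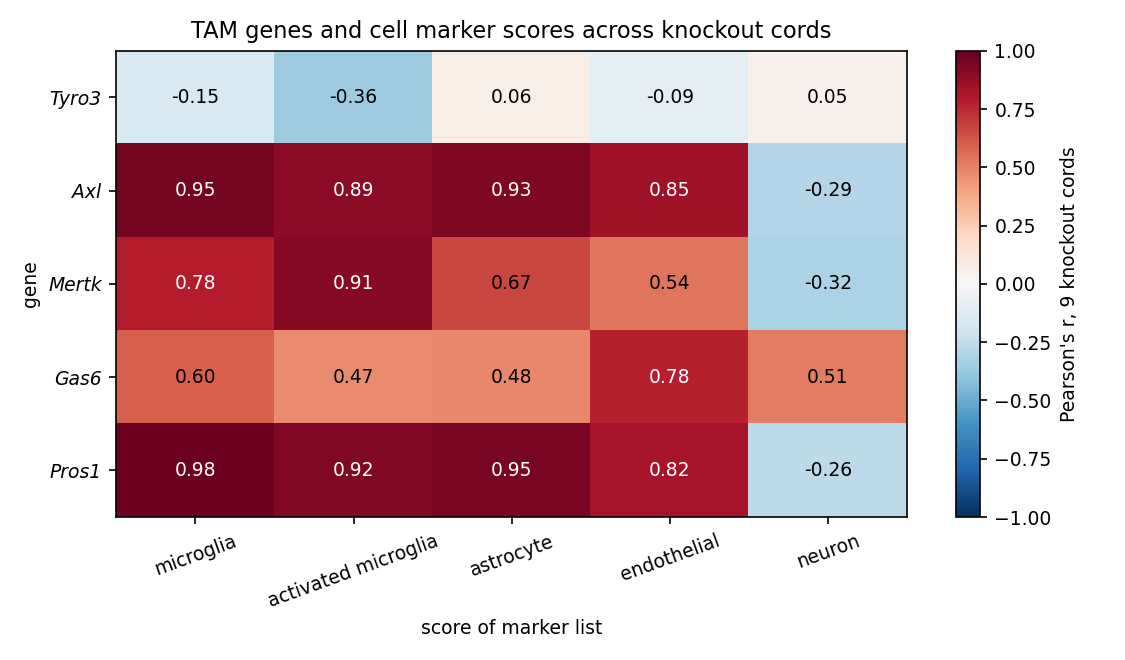
Pearson r over 9 knockout cords between the log2 level of each of the 5 genes and the score of each of 5 cell marker lists. Axl and Pros1 have r above 0.89 with the microglia, activated microglia and astrocyte scores, and Tyro3 has r between −0.36 and 0.06 with all scores.

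Among 16699 genes with a mean of at least 1 normalised CPM in cords, the genes whose deviations from the group mean over the 13 cords were most like those of each member were named. For Tyro3 this was Slain1, which codes for a microtubule-associated protein, with r of 0.958 (0.966 without cords 7 and 9, where it was again the nearest gene), followed at a distance by Desi1 (0.819), Zadh2 (0.810), the pseudogene Tubb4b-ps2 (0.801), whose reads its parent gene may share, and Snx15 (0.801). Without cords 7 and 9 these other genes ranked between 24 and 113 in likeness to Tyro3. The log2 fold change of Slain1 was −0.30 (SE 0.07), close to the −0.29 of Tyro3. Axl and Pros1 were the nearest genes to each other among all of these (r 0.994), followed for Axl by Ctnna1, an alpha-catenin (0.990), and the junction protein gene F11r (0.990), and for Pros1 by the haem oxygenase gene Hmox1 (0.993) and Msn, which codes for moesin (0.989). For Mertk the nearest were the immune receptor genes Lilrb4a (0.937) and Cd84 (0.930) and the AMP deaminase gene Ampd3 (0.927). For Gas6 they were Chmp1a (0.952), Map1lc3b (0.950) and Gdi2 (0.949), with r of 0.867, 0.850 and 0.876 and ranks of 30, 49 and 24 without cords 7 and 9. The genes named for Axl, Mertk and Pros1 ranked between 1 and 22 without those cords.

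Since Axl and Pros1 moved together, their promoters are shown, from 250 bases before to 50 after the RefSeq start on GRCm38.p6. Capitals mark GGGCGG (GC box) in Axl and the match to TTCNNNGAA (the letters of STAT sites, GAS-like) in Pros1.
Axl promoter (chr7:25788684-25788983, minus strand): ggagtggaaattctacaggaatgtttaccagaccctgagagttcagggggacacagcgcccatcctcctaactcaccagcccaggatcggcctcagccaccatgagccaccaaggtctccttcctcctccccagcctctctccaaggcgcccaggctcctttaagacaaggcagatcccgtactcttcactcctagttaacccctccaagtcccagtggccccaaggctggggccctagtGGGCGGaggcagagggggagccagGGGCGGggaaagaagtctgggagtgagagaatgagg
Pros1 promoter (chr16:62854057-62854356, plus strand): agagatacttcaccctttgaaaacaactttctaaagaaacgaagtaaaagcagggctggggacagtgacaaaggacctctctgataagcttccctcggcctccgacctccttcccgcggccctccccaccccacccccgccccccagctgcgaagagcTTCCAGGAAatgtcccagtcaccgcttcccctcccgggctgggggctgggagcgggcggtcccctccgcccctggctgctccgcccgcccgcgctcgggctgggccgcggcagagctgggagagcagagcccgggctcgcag
Both strands were searched. GGGCGG was found in all 5 promoters, 2 times in Axl and 5 times in Pros1, and occurs in 35.7% of 32851 promoters. The GAS-like letters were found in Pros1 alone of the 5 and occur in 8.30% of promoters. None of the 5 held CACGTG (E box, 7.15% of promoters), a pair of GAAA runs with 2 bases between them (ISRE-like, 3.44%), or GGGA followed by TTCC after 2 bases (kB-like, 1.47%). These motifs were chosen after the values were seen, and no measurement of binding was made.

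The position of the genes was compared with their neighbours, taking the 10 tested genes on each side. Around Tyro3 the 20 neighbours had log2 fold changes of −0.51 to 0.39 with a median of 0.02, and only Itpka, which codes for an inositol trisphosphate kinase and was named after its value was seen, was lower than Tyro3. Itpka was also the only neighbour whose knockout cords all lay below all wild-type cords. Pros1 and Mertk were each higher than all 20 of their neighbours and Axl was higher than 18, while Gas6 was higher than 8 and lower than 12. These ranks are a description only, because the genes were picked with the cord values in view.

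In the motor neuron cultures 2 of the receptors were nearly absent. Axl averaged 0.972 ± 0.306 TPM in miR-146a LNA cultures and 0.950 ± 0.452 TPM in control LNA cultures, and Mertk 0.241 ± 0.116 and 0.174 ± 0.130 TPM (SD, n = 3 each). Tyro3, at 60.4 ± 7.71 and 61.2 ± 1.31 TPM, made up 98.0% and 98.2% of the receptor TPM. The ligands were present, with Gas6 at 89.8 ± 4.15 TPM in miR-146a LNA cultures and 93.0 ± 1.77 TPM in control LNA cultures. The order Gas6, Tyro3, Pros1, Axl, Mertk was the same in all 6 cultures. Cords and cultures differ in tissue, donor and preparation, and no test was made between them.

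Pros1 rose in the miR-146a LNA cultures and was the only gene of the family called there. Its normalised CPM was 28.8, 25.4 and 26.4 in miR-146a LNA cultures, against 15.8, 16.9 and 17.0 in control LNA cultures. The groups did not overlap, and the lowest miR-146a LNA culture stood well above the highest control LNA culture. The means were 26.9 ± 1.71 in miR-146a LNA cultures and 16.6 ± 0.674 in control LNA cultures (SD, n = 3 each), a log2 fold change of 0.70 (SE 0.08), or 1.62-fold, with an adjusted p of 5.2e-05 by edgeR's quasi-likelihood test. Across all 19099 genes tested, 8.56% were called in either direction and 2.40% were called higher, and every miR-146a LNA culture lay above every control LNA culture for 12.8%, so that 1 of 5 members called is not set apart from this background as a count. The log2 fold change stayed between 0.65 and 0.74 when each culture was left out in turn and under the other scalings and tools. Pros1 made up 21.7% of the ligand TPM in miR-146a LNA cultures (20.7% to 22.3%) and 14.2% in control LNA cultures (13.8% to 14.5%).

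For the other members no difference was detected. Tyro3 had 100.8, 108.8 and 86.9 normalised CPM in miR-146a LNA cultures, against 101.6, 100.4 and 97.7 in control LNA cultures. These overlap, and the log2 fold change of −0.02 has a 95% interval of −0.15 to 0.12, with an edgeR adjusted p of 0.923. Its sign depends on the scaling and on which culture is left out. Gas6 had 62.4, 60.8 and 58.3 normalised CPM in miR-146a LNA cultures, against 61.5, 62.1 and 63.9 in control LNA cultures, with a log2 fold change of −0.05 (95% interval −0.17 to 0.07, edgeR adjusted p = 0.697).

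Axl was the only member with a seed match in the transcripts searched. It had 1.49, 1.54 and 0.838 normalised CPM in miR-146a LNA cultures, against 1.68, 1.52 and 0.576 in control LNA cultures. Its log2 fold change was 0.02 with an interval of −0.70 to 0.74 (edgeR adjusted p = 0.980), a range too wide to show a change of the size seen for Pros1. Mertk rested on 8 to 23 counts per miR-146a LNA culture and 6 to 22 per control LNA culture, with a log2 fold change of 0.44 and an interval of −0.81 to 1.69 (edgeR adjusted p = 0.734). Its log2 fold change ran from 0.14 to 1.27 when each culture was left out in turn, and 1.27 was the value without control LNA culture 1, which had 22 counts against 6 in each of the other control LNA cultures. The snoRNA gene within Mertk had up to 2 counts in a control LNA culture.

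**Figure D5:**
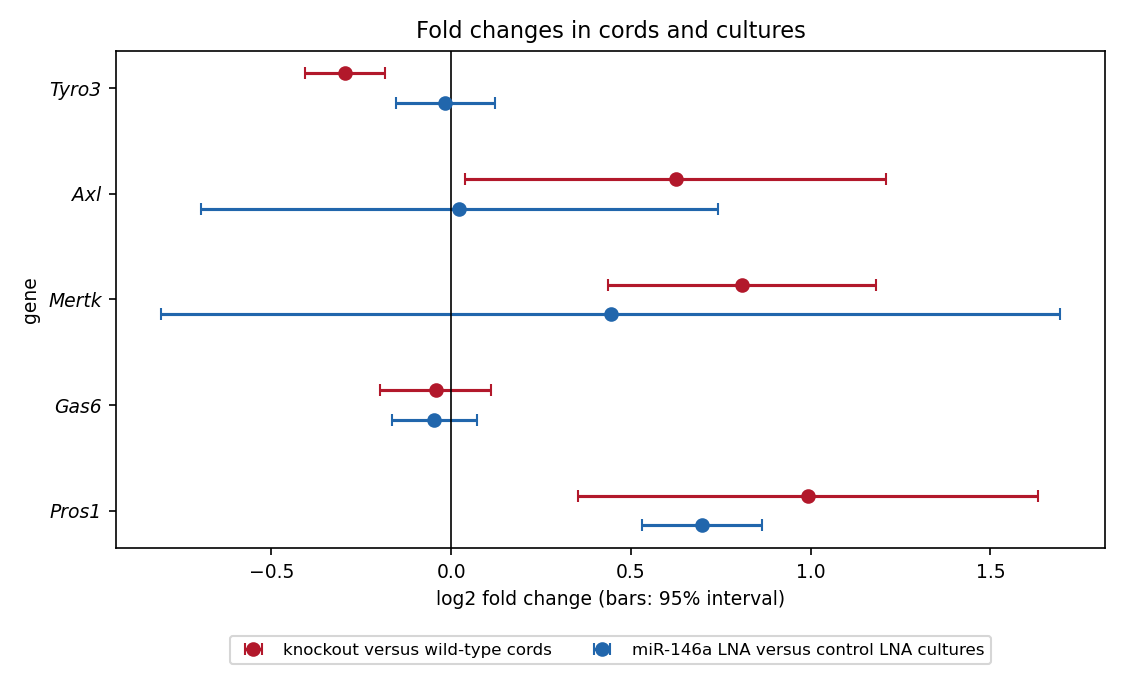
Log2 fold change of the 5 genes (x axis) in knockout versus wild-type cords, given as a description, and in miR-146a LNA versus control LNA cultures. Points are edgeR estimates and bars are 95% intervals, drawn as 1.96 SE to each side. The cord bars are not a test, because the genes were picked on that contrast, and nothing is read from where they lie relative to 0. In cultures the interval of Pros1 alone, 0.53 to 0.86, lies away from 0, and those of Axl and Mertk are wide.

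Few transcripts of glia or phagocytes were found in the cultures. Astrocyte markers summed to 5.81 to 7.91 TPM in miR-146a LNA cultures and 6.69 to 7.95 in control LNA cultures, and the microglia genes P2ry12, Aif1, Cx3cr1, Tmem119 and Itgam had at most 6 counts in any miR-146a LNA culture and at most 7 in any control LNA culture. P2ry12 had 0 counts in all 3 miR-146a LNA cultures. Of the 4 perivascular macrophage markers, Pf4 had 0 counts in all 6 cultures. Cd163 had at most 3 counts in miR-146a LNA cultures and at most 9 in control LNA cultures. Mrc1 had 41 to 83 and 31 to 47 counts, and Lyve1 35 to 61 and 21 to 67. Of these 2 tested genes 0 were called by edgeR and 1, Mrc1, had an unadjusted edgeR p below 0.05. Of the 4 tested activated microglia markers, Cd9 was called higher (list sums of 29.3 to 37.6 TPM in miR-146a LNA cultures and 21.8 to 28.1 in control LNA cultures). Among pericyte and fibroblast markers (5.19 to 6.95 and 3.18 to 5.08 TPM) Dcn was called higher, at 40 to 72 counts in miR-146a LNA cultures and 11 to 26 in control LNA cultures, 1 of 5 tested. Endothelial markers summed to 6.39 to 8.58 and 5.54 to 7.04 TPM, with 0 of 5 called by edgeR, 1 by DESeq2 and 1 at an unadjusted edgeR p below 0.05. Of 6 neuron markers Map2 and, narrowly, Syt1 were called lower (edgeR adjusted p = 0.00123 and 0.0470), and of 6 motor neuron markers Isl1 was called higher. The part of pericytes, fibroblasts or endothelial cells in the rise of Pros1 was not tested.

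The wider pathway was followed with 6 lists of 57 genes in all, none of them a member. In cultures 49 could be tested, and edgeR called 0 higher and 7 lower, or 14.3% of those tested beside 8.56% of all genes tested (6.16% called lower). Their median log2 fold change was −0.05, beside 0.01 over all genes, and DESeq2 called 1 higher and 7 lower (of all genes DESeq2 tested, 13.7% were called, 4.73% higher and 8.94% lower). Genes of phosphatidylserine exposure, which put the lipid on the outer leaflet or take it back, had 3 of 6 tested members lower, and all 6 estimates were negative. The scramblase gene Xkr4 fell by 0.56 on the log2 scale (edgeR adjusted p = 0.0189). The scramblase gene Ano6 fell by 0.22 on the log2 scale (edgeR adjusted p = 0.0194). The call of Xkr4 was lost without miR-146a LNA culture 1, miR-146a LNA culture 3 or control LNA culture 2, and that of Ano6 without any one of the control LNA cultures, with edgeR adjusted p of up to 0.175 and 0.0824.

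Downstream of the receptors, 3 of 17 tested signalling genes were lower. Among them the adaptor genes Grb2 and Nck2 fell by 0.29 and 0.31 on the log2 scale (edgeR adjusted p = 0.000886 and 0.00238). Of the 8 engulfment genes 1 was lower, the adaptor gene Crk, at 241 ± 7.36 normalised CPM in miR-146a LNA cultures and 342 ± 4.97 in control LNA cultures (SD, n = 3 each; log2 −0.51, SE 0.05, edgeR adjusted p = 4.2e-06). None of the 9 tested bridging proteins and other phosphatidylserine receptors, the 5 genes of the vitamin K cycle and gamma carboxylation, or the 4 genes of shedding and other ligands was called by edgeR or by DESeq2. In those lists 2, 0 and 0 genes had an unadjusted edgeR p below 0.05.

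In cords the same lists are described without their test, since they were chosen with cord results known. Of 54 tested genes 35 had a positive log2 fold change, with a median of 0.09 beside 0.02 over all genes tested. The highest was Cd36, a scavenger receptor, with a log2 fold change of 4.18 (SE 1.52), which was 2.30 without knockout cord 7. Lgals3, a galectin reported as a Mertk ligand, had 26.7 ± 25.9 normalised CPM in knockout cords and 2.996 ± 0.613 in wild-type cords (SD, n = 9 and n = 4; log2 3.15, SE 0.96). Socs3, a suppressor of cytokine signalling, had 15.1 ± 14.2 normalised CPM in knockout cords and 2.85 ± 0.372 in wild-type cords (log2 2.40, SE 0.73). The lowest were Adgrb1 (BAI1), a receptor for phosphatidylserine, at −0.19 (SE 0.10), the engulfment gene Elmo2 at −0.18 (SE 0.05) and the scramblase gene Xkr8 at −0.14 (SE 0.07).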

How the data were processed

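Per the series design notes, libraries were random-primed after RNase H depletion of ribosomal RNA and sequenced as paired reads of 150 bases. Per the submitters' processing notes, reads were aligned with STAR 2.7.9a1 to GRCm38 and counted with featureCounts. The handling of strand and duplicates is not given in the sources used here. Each deposited table gives per gene the raw count, and the CPM, FPKM and TPM that the authors computed from it. In all 19 libraries the deposited CPM equalled the count scaled to its library sum. The FPKM values of the authors were not used. TPM was used as deposited by the authors.

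Counts were tested with edgeR 4.0.16 in R 4.3.3 (quasi-likelihood test, robust fit) after its expression filter and TMM scaling, over 22174 genes in cords and 19099 in cultures, in separate fits. Benjamini-Hochberg adjusted p below 0.05 counted as called. DESeq2 1.42.0, limma 3.58.1 (voom with quality weights), other scalings, no filter, single libraries left out and a replicate block were alternatives. On simulated counts with 200 genes changed by 1 log2 unit, edgeR called 76.0% of them in the cord design and 88.5% in the culture design. It also called 8 and 13 unchanged genes. The simulation gave both groups the same dispersion for a gene. In the real cords Axl, Mertk and Pros1 spread more among knockouts, so 76.0% does not describe what could be detected there. Cord numbers only name libraries. Culture numbers come from the labels, and same-numbered cultures did not deviate together, so they were not paired. No pair of libraries matched within sampling noise.

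Correlations within knockout cords used log2 normalised CPM (prior count 2) and two-sided exact permutation tests. Pathway genes were named where edgeR called them in cultures, at most 4 a list, and in cords as the 3 highest and 3 lowest with a mean of at least 1 normalised CPM. For likeness, the nearest 5 genes were named for Tyro3 and 3 for each other member. The members, lists and markers were chosen with earlier results of these data known. Results of some listed genes are not reported here.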

Additional observations from a re-analysis of the deposited data

Results flagged for a closer look

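In 3 of 10 sets of cord values (5 genes in 2 groups) 1 cord stood far from the others by Dixon's test at its 95% critical value, a rule that chance meets in about 1 in 20 sets. Axl had 284 normalised CPM in knockout cord 7, the cord that also carried Acta1 transcripts, against 84.7 to 174 in the other knockout cords. Axl had 98.6 normalised CPM in wild-type cord 2, against 85.9 to 86.6 in the other wild-type cords, and Pros1 had 21.1 normalised CPM in the same cord, against 19.1 to 19.3 in the others. Wild-type cord 2 thus stood apart in both genes that moved together within the knockout cords, and it also had the highest Tyro3 of all cords (132.5 normalised CPM).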

How the results depend on the processing

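In cords edgeR called 0 of 22174 genes (3177 at an unadjusted p below 0.05), DESeq2 called 388 and limma 3. The count was 0 to 2 when each library was left out (1 without knockout cord 2, 2 without knockout cord 7, 2 without the library labelled knockout replicate 9) and 8 without cords 7 and 9 together. The cord log2 fold change of Tyro3 stayed between −0.32 and −0.26 in 19 settings. In cultures edgeR called 1635 genes, and 778 to 1985 when each culture was left out, with 1059 without control LNA culture 1 and 778 without control LNA culture 2. Calls were higher for 458 of 1635 genes, and for 741 of 1572 under library size scaling. Pros1 was called in cultures in all 12 settings, with an adjusted p of at most 0.00108. With the replicate number as a block, 1793 genes were called in cultures, the log2 fold change was 0.70 for Pros1 and −0.02 for Tyro3, and the block changed no call among the 5 genes. The culture log2 fold change of Tyro3 turned positive under library size scaling (0.029) and limma (0.027), and ran from −0.093 to 0.069 when each culture was left out. That of Axl ran from −0.32 to 0.29 when each culture was left out, and that of Mertk from 0.14 to 1.27 (1.27 without control LNA culture 1). The cause of these shifts was not tested. Of 25 relations with marker scores, 10 passed, and 6 passed without cords 7 and 9, an alternative chosen after seeing the data. These counts have no share over all genes beside them and are not read as a trait of the 5 genes. Low counts of Axl and Mertk in cultures limit what can be detected there.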
